A study of Mus musculus with 61 samples.

Results

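Mycn, of the Myc gene family, and Pvt1, the neighbour of Myc, are described here by their chromatin accessibility and by the Sox2 binding around them early in reprogramming. Mycn encodes N-Myc, a transcription factor of embryonic and neural progenitor cells. Pvt1 is a long non-coding RNA gene that starts just downstream of Myc, the gene of c-Myc. The regions were found by gene name, as every enhancer and promoter that the deposited Sono-seq table gives to Mycn or Pvt1, and each Sox2 position within 500 kb of their start sites was added. That gave 38 enhancers and promoters (11 for Mycn and 27 for Pvt1), in a table of 19778 distinct regions and 5154 gene symbols. It also gave 19 of 17681 Sox2 positions in the Renilla list, 20 of 15888 in the Chaf1a.166 list and 23 of 19319 in the Chaf1a.2122 list.

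Myc proteins bind E-box DNA as dimers with Max and raise the expression of genes of growth, ribosome production and metabolism. c-Myc is one of the 4 factors of the OKSM cassette, and N-Myc can replace it in reprogramming. The region downstream of Myc that holds Pvt1 carries many enhancers in several tissues, and its RNA has been linked to Myc protein levels. Sox2, another factor of the cassette, binds enhancers and promoters as it helps to set up the pluripotent state. CAF-1 places histones on newly copied DNA, and Chaf1a is its largest subunit.

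The cells were mouse embryonic fibroblasts from E13.5 embryos of strain Black6-129X1/SvJ, with the genotype Col1a1::tetOP-OKSM and R26-M2rtTA. All groups used here thus carried the doxycycline-driven cassette and were taken on day 3 in 2 ug/ml doxycycline with ascorbate, in serum and LIF medium. Sox2 was mapped by ChIP-seq in cells with a Renilla control hairpin and in cells with the Chaf1a.166 or the Chaf1a.2122 hairpin, from 1 immunoprecipitate and 1 input each. Sono-seq, which sequences the DNA that sonication frees more readily from open chromatin, was done on 3 CAF-1 knockdown and 3 Renilla libraries, and each condition has a single deposited value for a region. Per the file header, the regions come from a published set made in embryonic stem (ES) cells, not in fibroblasts. The labels do not name the hairpin of the Sono-seq knockdown. The other 49 of 61 samples were not used here, so that neither the knockdown nor the cell type could be checked by marker expression. With 1 value per condition and 1 library per hairpin there is no replicate error for any value below, and no test between conditions was possible. Read depth is unknown. Where a list lacks a position, Sox2 may still have been there below the limit of that list.

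The promoter of Mycn is shown because 1 Sox2 position lay close to its start site. RefSeq (build GRCm38.p6) gave a promoter for 1 of the 2 members, Mycn. Its 250 bases before the start site, chr12:12941837-12942086 on the minus strand, are printed 5′ to 3′. Capitals mark the 41 bases from 91 to 51 bases before the start, which are centred on the distance of the Sox2 position if the RefSeq start is the one used in the Sono-seq table.
Mycn promoter: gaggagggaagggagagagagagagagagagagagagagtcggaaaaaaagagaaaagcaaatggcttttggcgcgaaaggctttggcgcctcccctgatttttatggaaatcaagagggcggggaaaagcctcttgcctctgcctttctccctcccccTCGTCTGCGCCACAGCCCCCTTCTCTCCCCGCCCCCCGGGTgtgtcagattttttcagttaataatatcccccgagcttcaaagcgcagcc
The window had 54.8% G and C, against a median of 52.4% over the 32851 promoters of the table, and its capitals had 75.6%. It held no match on either strand of ACAAT (the core that SOX proteins bind), of ATGCAAA (the first 7 bases of the octamer that Oct4 binds) or of CACGTG (the E-box of Myc and Max). Such letters occur in 27.7%, 4.12% and 6.02% of all promoters over the same length, so that the absence of each was the more common state. It says only that these letters are not in this window.

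At Mycn, the control and both knockdowns shared 7 of 13 Sox2 sites, near the share over the genome, and 1 site of a single list lay at the promoter. Around the start site on chromosome 12 at 12948642 (mm9), the Renilla list had 10 positions within 500 kb (95% Poisson interval 4.80 to 18.4). The Chaf1a.166 list had 11 (5.49 to 19.7) and the Chaf1a.2122 list 7 (2.81 to 14.4). These intervals cover counting error only, and they overlap. Over all 5513 start sites the medians were 10, 10 and 11 positions, with quartiles of 7 and 13, 6 and 13, and 8 and 15. Mycn thus lay inside that range for both Renilla and Chaf1a.166 and below it for Chaf1a.2122, where 17.9% of start sites had fewer positions.

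To compare lists, neighbouring positions no more than 200 bp apart were counted as a single site. Mycn had 13 sites, of which 7 (53.8%, exact Clopper-Pearson interval 25.1 to 80.8) were held by all 3 lists. Over the whole genome the share was 43.3%, which the interval includes. Another 3 sites were in Chaf1a.166 alone, 2 in Renilla alone and 1 in Renilla with Chaf1a.166. None was in Chaf1a.2122 alone, and none in both knockdown lists without Renilla, a share for which 0 of 13 sites allows up to 24.7% by the same interval. Every position that the Chaf1a.2122 list had near Mycn therefore belonged to a shared site.

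**Figure D1:**
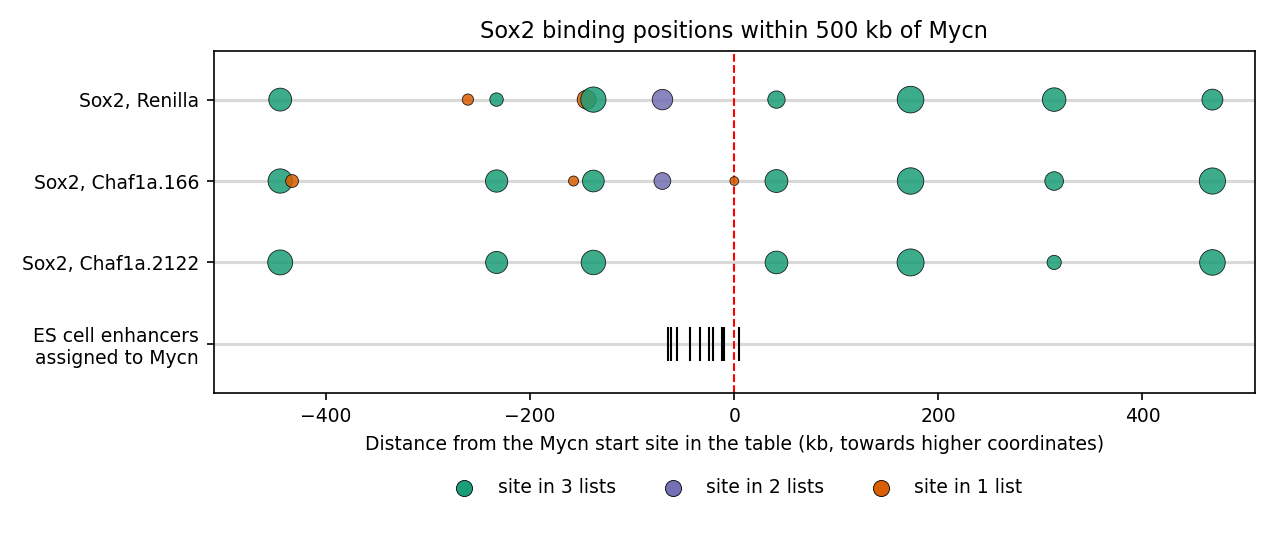
Sox2 positions within 500 kb of the Mycn start site (red dashed line) in each list, with the 10 ES cell enhancers assigned to Mycn as ticks; the x axis is distance in kb. Larger points rank better by score within their own list, and colours give the number of lists that hold the site: 7 sites are in 3 lists, and the point at the start site is in Chaf1a.166 alone.

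The best site near Mycn lay 172754 bp to its upstream side, at 13121386 (Chaf1a.166), 13121396 (Renilla) and 13121416 (Chaf1a.2122). It ranked 1355 of 15888, 1266 of 17681 and 833 of 19319 by score, or the best 8.53%, 7.16% and 4.31% of the lists, ahead of every other site near Mycn in each. The authors' enrichment over input was 6.74, 7.81 and 29.7 there, values that hold within their own list and are not compared between lists. A further site on that side, about 468527 bp away at 13417169, ranked 1678 in Chaf1a.166, 2876 in Chaf1a.2122 and 8190 in Renilla. The remaining shared sites were at 12503789, 12715837, 12810648, 12990004 and 13262088. In the 7 shared sites the outermost positions lay between 25 and 80 bp apart, with a median of 31 bp, so that the lists placed them at nearly the same base. The shared site closest to the start was the one at 12990004, 41362 bp upstream, with ranks of 11687 (Renilla), 5418 (Chaf1a.166) and 6830 (Chaf1a.2122).

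The Mycn promoter itself had a Sox2 position in 1 list. In Chaf1a.166 it lay at 12948713, 71 bp upstream of the start site of the Sono-seq table. The nearest Renilla and Chaf1a.2122 positions were 41362 and 41382 bp away. It ranked 15612 of 15888 by score, close to the end of its list, while its enrichment was 21.7 with a lower bound of 3.53, above the list median of 8.37. Of all promoters, 7.40% had a Chaf1a.166 position within 500 bp, 7.62% a Renilla position and 9.32% a Chaf1a.2122 position. The position was lost when each list was cut to its best 90% by score, a check chosen after seeing the data. It was kept when positions needed a lower bound of 2 or more. Both outcomes follow from its rank and its lower bound and add nothing to them.

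Positions that a single list held near Mycn ranked below the median of that list. The Chaf1a.166 ones, at 12515442, 12791213 and the promoter, stood at the best 85.4%, 94.8% and 98.3% of their list, where 100% is the lowest score. Those of Renilla, at 12687686 and 12804051, stood at 91.1% and 57.8%. The site of Renilla with Chaf1a.166 at 12878300, 70342 bp on the downstream side, stood at 49.0% and 68.8%. Each shared site has 3 ranks, from the best 4.31% to 37.7% in the list where it ranked best and from 8.53% to 83.4% where it ranked worst, so that these overlap the values of single lists.

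None of the ES cell enhancers of Mycn had a Sox2 position at it. The table assigns 10 enhancers to Mycn and none of them to another gene, whereas 29.7% of all enhancers are shared between genes. They lay from 64.8 kb on the downstream side to 4.26 kb on the upstream side, 9 of them downstream. Sox2 positions within 500 bp were found at 0 of 10 in any list, against 4.78% of all 14265 enhancers. By list these shares of all enhancers were 3.20% (Renilla), 3.33% (Chaf1a.166) and 3.65% (Chaf1a.2122). A count of 0 among 10 is near such shares. The nearest Sox2 position of any list was 4187 bp away for the enhancer at 12952900, and a median of 13506.5 bp away over the 10. That nearest position was the promoter position of Chaf1a.166. The next was a site of Renilla with Chaf1a.166, 5500 bp from the enhancer at 12883800.

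The Mycn promoter was below the median promoter in both conditions, with the lower value in the knockdown. The Sono-seq value of the promoter was 0.117 with CAF-1 knockdown and 0.134 with Renilla, in the authors' unit, which is not stated. Its mean stood at percentile 24.8 of all promoters, whose medians were 0.141 and 0.143. The log2 ratio of CAF-1 over Renilla was -0.19, a value 1.14-fold lower in the knockdown. It lay within the SD of 0.23 over all promoters and at percentile 20.6 of their ratios.

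The enhancers of Mycn moved in both directions. In order along the chromosome, the first 3 (12883800, 12887100 and 12893000) had 0.109, 0.131 and 0.113 with CAF-1 knockdown and 0.114, 0.136 and 0.106 with Renilla. The enhancer at 12905000 had 0.114 and 0.150, a log2 ratio of -0.40 and the lowest of the 10. The next 3 (12915300, 12924100 and 12928300) had 0.161, 0.121 and 0.121 with knockdown, and 0.143, 0.121 and 0.110 with Renilla. Adjacent enhancers could go opposite ways. That at 12936400 had 0.113 and 0.145 (log2 ratio -0.37), while that at 12938900, 2500 bp further on, had 0.154 and 0.117, the highest ratio of the 10 at 0.39. The upstream enhancer at 12952900 had 0.105 and 0.112.

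Of all enhancers 55.3% were higher with knockdown. Of the 10 at Mycn 4 were higher and 6 lower, too few to set apart from that share. Their median log2 ratio was -0.026 and their SD 0.24, against a median of 0.028 and an SD of 0.23 over all enhancers. A change of at least 1.2-fold was counted as a call, without a test. By that measure 1 enhancer was called higher, where 15.5% of all enhancers were, and 2 lower, where 10.6% were. Counts this small are near those shares. Only 1 of the 10 had a mean level above the median enhancer, the one at 12915300 at percentile 69.6. Across the 10 enhancers the values of both conditions were weakly related (Pearson r 0.24, Spearman rho 0.25), which is a description over sites that share 2 sets of libraries. Over all enhancers these were 0.92 and 0.68, but across a far wider range of values. With knockdown all enhancers ran from 0.0024 to 4.21, against 0.105 to 0.161 at Mycn. The coefficients are therefore not set against each other.

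**Figure D2:**
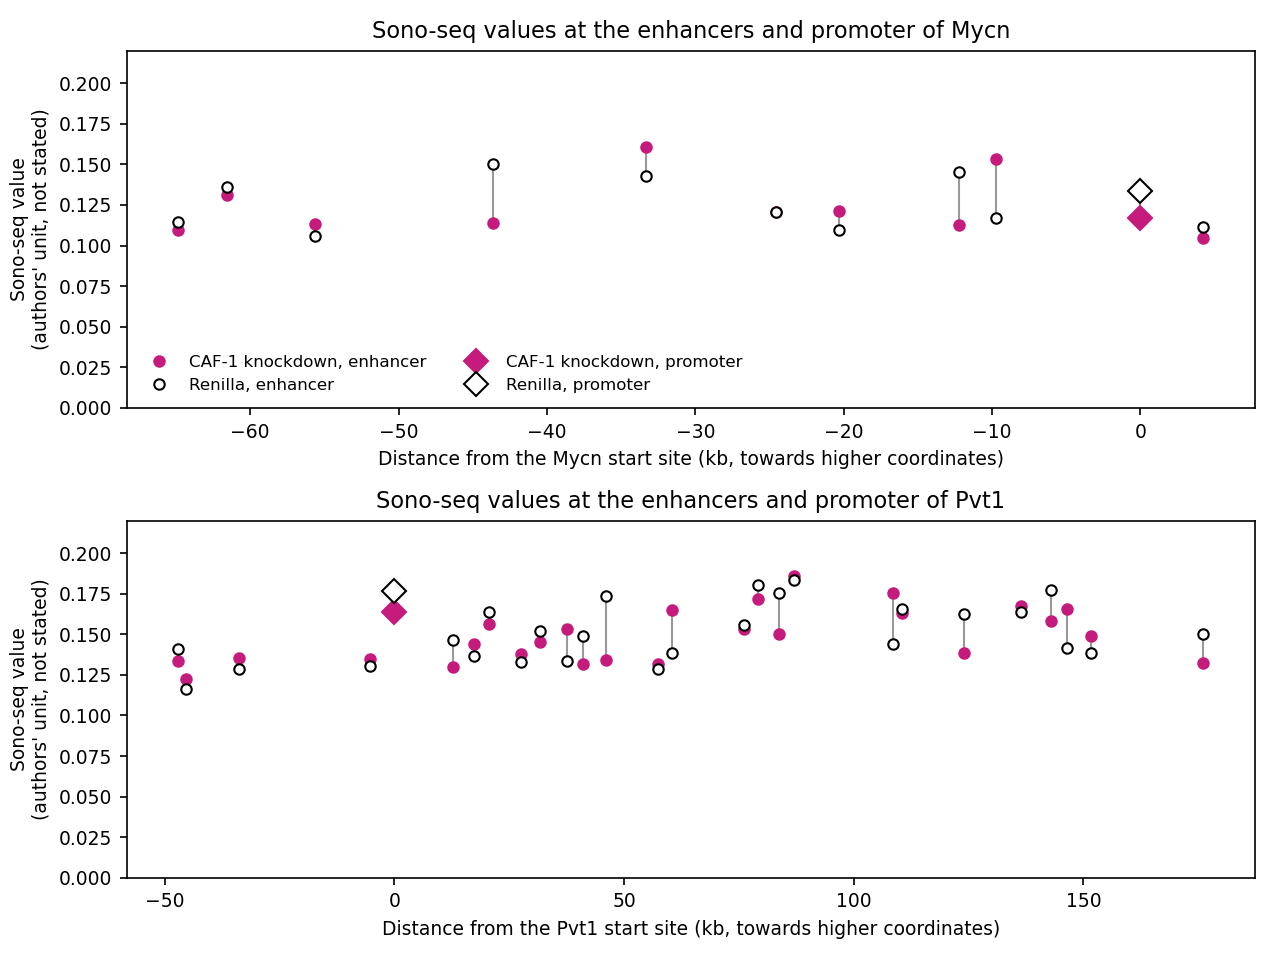
Sono-seq values (y axis, authors' unit, not stated) at each enhancer (circles) and the promoter (diamonds) of Mycn (top) and Pvt1 (bottom) by distance from the start site in kb; filled symbols are CAF-1 knockdown and open symbols Renilla, 1 value each with no error available. Mycn enhancers lie between 0.105 and 0.161 and those of Pvt1 between 0.116 and 0.186, with the conditions crossing from one enhancer to the next.

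At Pvt1, the 3 lists shared 4 of 19 Sox2 sites, and the Chaf1a.2122 list held the most positions, with counting intervals that overlap those of the other lists. Around the start site on chromosome 15 at 61869541 (mm9), Renilla had 9 positions within 500 kb (95% Poisson interval 4.12 to 17.1), Chaf1a.166 also 9 (4.12 to 17.1) and Chaf1a.2122 16 (9.15 to 26.0). The lists also differ in length, and per 1000 positions the values were 0.509, 0.566 and 0.828. Of all start sites, 78.0% had fewer Chaf1a.2122 positions than Pvt1, 37.7% fewer Renilla and 41.9% fewer Chaf1a.166 positions. The Chaf1a.2122 count at Pvt1 thus lay above the upper quartile of 15, and those of Renilla and Chaf1a.166 between their quartiles.

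Most of the Chaf1a.2122 positions at Pvt1 ranked low. Of its 16, 11 were in the lower-scored part of the list (below the median), against 4 of 9 in Renilla and 4 of 9 in Chaf1a.166. With positions of a lower bound of 2 or more, the counts became 7 for Chaf1a.2122, 6 for Renilla and 6 for Chaf1a.166. That limit kept 11071 of 19319, 11545 of 17681 and 10629 of 15888 positions of the whole lists. Part of the fall at Pvt1 is thus shared with each whole list. At an equal list length of 15888 the counts near Pvt1 were 12, 7 and 9. Of the 3 lists as deposited, Chaf1a.2122 thus had the lowest count at Mycn and the highest at Pvt1, with overlapping intervals in both.

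**Figure D3:**
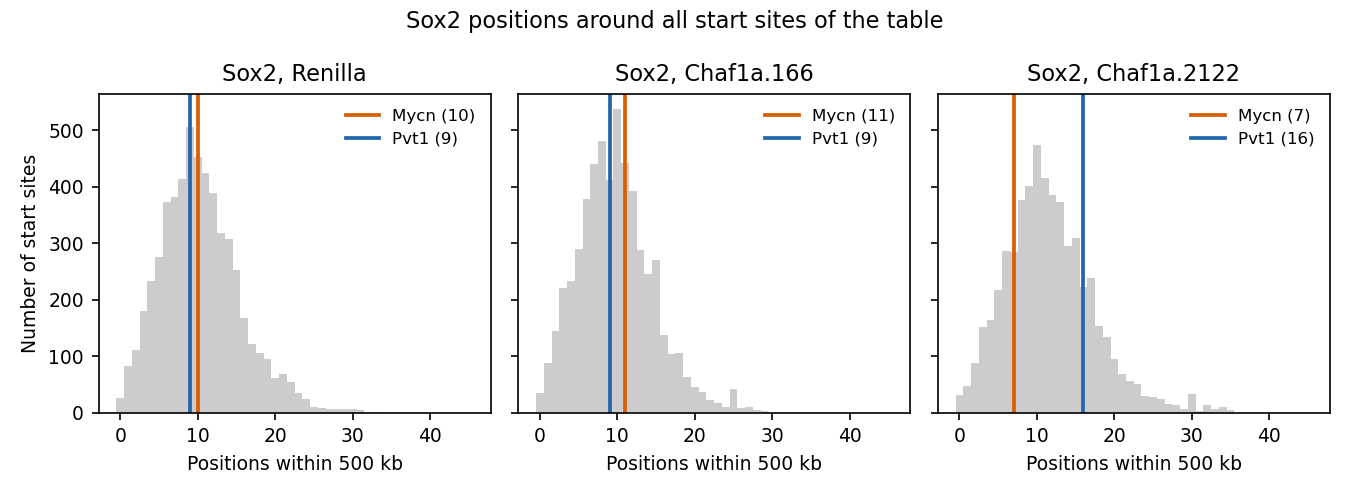
Number of Sox2 positions within 500 kb (x axis) of each of the 5513 start sites of the Sono-seq table (grey bars, number of start sites on the y axis) in the 3 lists, with Mycn and Pvt1 as lines. Mycn (10, 11 and 7) and Pvt1 (9, 9 and 16) lie in the body of each distribution, and neighbouring start sites share positions.

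The 16, 9 and 9 positions near Pvt1 formed 19 sites. All 3 lists held 4 of them (21.1%, 6.05 to 45.6), where 43.3% of all sites were shared and inside the interval. Chaf1a.2122 alone held 6 (31.6%, 12.6 to 56.6), against 16.1% of all sites. Both knockdown lists without Renilla held 3 (15.8%, 3.38 to 39.6), against 6.64%. Renilla with Chaf1a.2122 also held 3, and Renilla with Chaf1a.166, Renilla alone and Chaf1a.166 alone held 1 each. Each of these intervals includes the share over all sites. The shared part also depends on where the window ends. Within 500 kb of the Myc start, 52646 bp upstream, 7 of 22 sites (31.8%) were in all 3 lists.

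**Figure D4:**
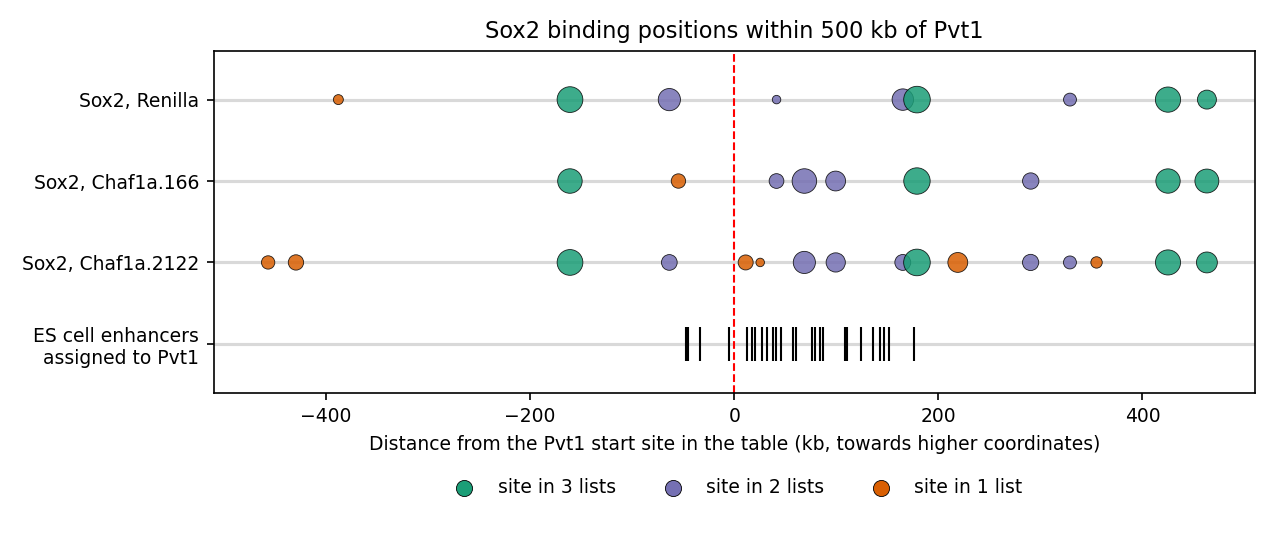
Sox2 positions within 500 kb of the Pvt1 start site (red dashed line) in each list, with the 26 ES cell enhancers assigned to Pvt1 as ticks; the x axis is distance in kb. Point size and colours follow the map of Mycn: 4 sites are in 3 lists, and the purple points that both knockdown rows have at about 69 and 99 kb are missing from the Renilla row.

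The shared sites of Pvt1 lay far from its start. The best within 500 kb was at 62048574 (Chaf1a.166), 62048573 (Chaf1a.2122) and 62048612 (Renilla), 179033 bp downstream of the start. It ranked 1404 of 15888, 1422 of 19319 and 1321 of 17681, or the best 8.84%, 7.36% and 7.47%. The others were at 61708607, 160934 bp upstream and beyond Myc, and at 62294547 and 62332664, 425006 and 463123 bp downstream. At 62294547 the 3 lists lay within 8 bp of each other and ranked 3134 (Renilla), 3796 (Chaf1a.166) and 3598 (Chaf1a.2122). Just past the upstream edge of the window, a shared site at 61364523 stood higher, at the best 1.37% to 1.83% of the lists. No list had a position at the Pvt1 promoter, since the nearest were 11209 bp (Chaf1a.2122), 41422 bp (Chaf1a.166) and 41466 bp (Renilla) away.

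The 3 sites of both knockdowns without Renilla all lay downstream of the Pvt1 start. The first, at 61938277 in Chaf1a.166 and 61938242 in Chaf1a.2122, was 35 bp wide and stood at the best 22.6% and 38.7% of the lists. A second followed at 61968914 and 61968991, with 52.8% and 56.1%. The third, at 62160041 and 62159936, had positions 105 bp apart and 70.9% and 71.4%. It was no longer joined when 100 bp was the limit, which left 2 such sites. In the stretch that the first 2 span no Renilla position was listed, and the nearest ones were at 61911007 and 62034716.

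Renilla with Chaf1a.2122 held 3 sites near Pvt1 (15.8%), against 9.76% of all sites. They were at 61805973, 62034716 and 62198518 by the Renilla position. They stood at 38.4%, 43.0% and 85.4% in Renilla and at 73.7%, 73.0% and 85.1% in Chaf1a.2122. The site of Renilla with Chaf1a.166 at 61911007 was near the end of the Renilla list (99.0%).

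Pvt1 had many more enhancers than most genes and shared most of them with Myc. The table assigns 26 to it, and only 27 of 5513 start sites (0.490%) have as many or more; the median is 3. Myc, whose start site lies 52646 bp upstream at 61816895, has 23. Of the 26 enhancers of Pvt1, 19 are also given to Myc and 7 to Pvt1 alone, while 4 of Myc are not given to Pvt1. The shared ones enter both genes, so that values of Pvt1 and Myc enhancers are not independent. The 26 ran from 47.0 kb upstream of the Pvt1 start to 176 kb downstream, with 4 upstream and 22 downstream.

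Sox2 lay at the Pvt1 enhancers about as often as at enhancers in general. At 1 of 26 (3.85%) a position of any list lay within 500 bp, against 4.78% of all enhancers. That enhancer, at 61910600 and shared with Myc, had a Chaf1a.166 position 363 bp away and a Renilla position 407 bp away, both weak (78.1% and 99.0% of their lists). Within 250 bp there were 0, and within 2000 bp there were 2, distances at which no share over all enhancers was computed. The second, at 61882200, lay 1450 bp from a position of Chaf1a.2122 alone at 61880750. The 2 best sites of both knockdowns near Pvt1 were 7423 and 9109 bp from the closest Pvt1 enhancer. The second of them was 109 bp from an enhancer at 61969100 that the table gives to Myc and not to Pvt1.

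The Pvt1 promoter was above the median promoter in both conditions. Its Sono-seq value was 0.164 with CAF-1 knockdown and 0.177 with Renilla, at percentile 85.2 of all promoters by mean level. The log2 ratio was -0.11 (percentile 32.4), or 1.08-fold lower in the knockdown, and thus smaller than the SD over promoters of 0.23. The Myc promoter went the other way, with 0.145 and 0.126 and a log2 ratio of 0.21. Neither passed 1.2-fold, which 11.3% of promoters passed upwards and 13.3% downwards, and the difference between them has no test.

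The 26 enhancers of Pvt1 went both ways, 13 higher and 13 lower with knockdown. Over all enhancers 55.3% were higher, a share that this count is near. The median log2 ratio of the 26 was -0.0025 and their SD 0.16, against 0.028 and 0.23 over all enhancers. Just 1 was called higher by 1.2-fold (15.5% of all enhancers) and 1 lower (10.6%). The higher one, at 61978100 and shared with Myc, had 0.175 with knockdown and 0.144 with Renilla, a log2 ratio of 0.28. The lower one, at 61915600 and given to Pvt1 alone, had 0.134 and 0.173, a log2 ratio of -0.37. Just short of the limit was the enhancer at 61930000, with 0.165 and 0.138 (0.26). The 19 enhancers shared with Myc had a median ratio of -0.022 with 8 higher, and the 7 of Pvt1 alone one of 0.041 with 5 higher. The 4 of Myc alone had a median of 0.19. These subsets hold few sites and have no test.

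Median levels at Pvt1 were highest beyond 70 kb downstream of its start, in both conditions. This split was chosen after seeing the values and has no test. The 4 enhancers upstream of the start had medians of 0.134 with knockdown and 0.130 with Renilla. The 10 in the first 70 kb downstream had 0.141 and 0.142, and the 12 beyond had 0.161 and 0.163. The highest mean level of the 26 was at 61956500, 86959 bp downstream, with 0.186 and 0.184, at percentile 95.8 of all enhancers. Its neighbour at 61948800 had 0.172 and 0.180 (percentile 92.1). The least accessible, at 61824200 in the stretch between Myc and Pvt1, had 0.123 and 0.116 (percentile 21.9). Of the 26, 19 exceeded the median enhancer by mean level, against 1 of 10 at Mycn. The median ratio stayed near 0 in each stretch, at 0.059, -0.016 and -0.021.

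Within the first 70 kb the 10 enhancers went both ways, 5 higher and 5 lower with knockdown, where 55.3% of all enhancers were higher. Those at 61882200, 61890200, 61901200 and 61910600 were lower with knockdown, with log2 ratios of -0.17, -0.066, -0.069 and -0.18. Between them, 61886900, 61897100 and 61907200 were higher, with 0.072, 0.0497 and 0.20. Next came 61915600, the lowest, and then 61927000 (0.034) and 61930000, both higher. Beyond 70 kb the lowest were 61993450 (0.138 with knockdown and 0.163 with Renilla) and 61953200 (0.150 and 0.176). The highest after 61978100 was 62015900, with 0.165 and 0.141. Across the 26 the values of both conditions were related with a Pearson r of 0.53 and a Spearman rho of 0.52, a description over sites of the same libraries. The largest value was 1.51 times the smallest with knockdown at Pvt1 and 1.53 times at Mycn, and with Renilla 1.58 and 1.42 times.

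**Figure D5:**
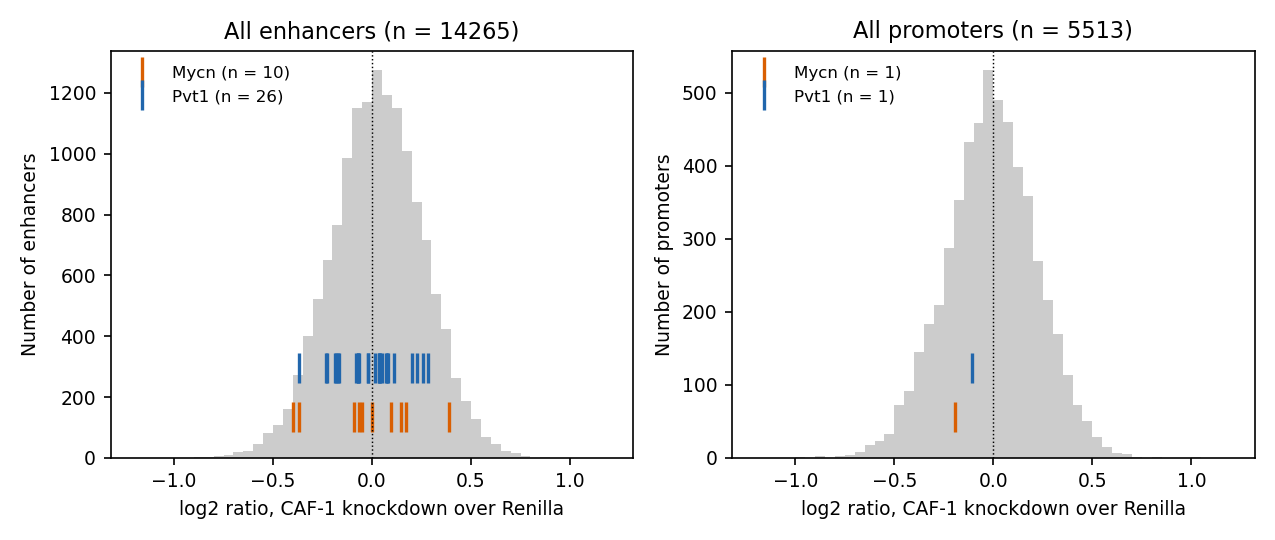
Distribution of the log2 ratio of CAF-1 knockdown over Renilla (x axis) for all 14265 enhancers (left) and 5513 promoters (right) as grey bars, with the enhancers and promoters of Mycn (orange) and Pvt1 (blue) as ticks. The ticks spread over both sides of 0, from -0.40 to 0.39, within the range of the bars. These 2 ends, both Mycn enhancers, are at percentiles 3.28 and 94.4 of all enhancers. Both promoters lie below 0, at -0.19 (Mycn) and -0.11 (Pvt1).

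The promoters most like the members by both Sono-seq values were found by Euclidean distance on the log2 scale, over 2 values only. For Mycn these were Pan3 (0.117 with knockdown and 0.134 with Renilla), St13 (0.118 and 0.134) and Gnl2 (0.117 and 0.133). For Pvt1 they were Zfp191 (0.164 and 0.176), Dgat1 (0.164 and 0.176) and Sart1 (0.164 and 0.177). The distances lay between 0.0038 and 0.0094 among the 5512 other promoters.

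The closest other genes of the table differed in distance at the 2 loci. Next to Mycn, RefSeq places Fam49a (now Cyria) and Ddx1 among protein-coding genes. Only Fam49a is in the table, 679698 bp away, with a promoter log2 ratio of 0.021. Next to Pvt1 are Myc and Gsdmc, of which Myc is in the table. The Myc start had a Chaf1a.166 position 2015 bp away, at 61814880, which is also one of the private positions near Pvt1 (79.5% of its list). The nearest Renilla and Chaf1a.2122 positions were 10922 and 10943 bp from Myc, both in the site at 61805973.

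Other genes of the Myc network were taken from a list of 38 names, of which 23 are in the table with 24 start sites. Among Myc family members and partners, 7 of 14 were measured. None of their promoters changed by 1.2-fold, where 11.3% of all promoters were higher and 13.3% lower by that measure. With 7 promoters a count of 0 is too small to set apart from those shares. Max, the partner of all Myc proteins, had a log2 ratio of -0.24, with 0.141 and 0.167, and Mnt, a repressor that also pairs with Max, 0.11. Mga, Mlx and Mlxip, other proteins of the network, had -0.070, -0.024 and -0.21. Of these 7 genes, 4 had a Chaf1a.166 position within 10 kb of the start, against 28.5% of all genes. For Renilla the count was 1 (29.3%) and for Chaf1a.2122 it was 1 (33.4%).

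Mycn, Myc and Max were the 3 family genes with a Chaf1a.166 position alone, at 71, 2015 and 3691 bp. That class holds 153 genes (2.97%) in the table. For Myc it depends on the 10 kb limit, as the nearest Renilla and Chaf1a.2122 positions lay at 10922 and 10943 bp. Mnt was near a position in every list, at 2001 bp (Renilla), 2003 bp (Chaf1a.166) and 2007 bp (Chaf1a.2122). Mycn is itself a member, and the list was drawn up with results of these data known, so this count supports nothing further.

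Cofactors and regulators of Myc, with 7 of 9 names measured, had no promoter past 1.2-fold. Over all promoters 11.3% were higher and 13.3% lower, and 7 are too few to set apart from those shares. The log2 ratio was -0.21 at Fbxw7, which marks Myc for degradation. The histone code reader Wdr5 had -0.13 and Trrap, a scaffold of acetyltransferase complexes, -0.11. The ATPase Ruvbl2 had 0.18, the kinase Pim1 0.062 and the kinase Aurka, which stabilises N-Myc, 0.010. Renilla positions lay within 10 kb of 3 of the 7, Aurka, Pim1 and Trrap, at 393, 3486 and 3316 bp. Over all genes the share was 29.3%. Only at Pim1 did the Chaf1a.166 and Chaf1a.2122 lists also have one, at 1651 and 3490 bp (28.5% and 33.4% of all genes). At Trrap their nearest positions were 10340 and 10429 bp away, just past the 10 kb limit, so its class depends on that limit.

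Of well known Myc targets, 9 of 15 were measured, with 10 start sites. In this group 5 start sites were at least 1.2-fold higher with knockdown, against 11.3% of all promoters, and 2 lower, against 13.3%. Those higher were Npm1 (0.151 and 0.111) and Fbl (0.175 and 0.130), both nucleolar proteins, Nop56 (0.170 and 0.134), Cad (0.160 and 0.130) and 1 of the 2 starts of Ldha (0.204 and 0.157). Those lower were Eif4e, the cap-binding translation factor, with 0.0918 and 0.157, and Srm, spermidine synthase, with 0.134 and 0.193. Hspd1 (0.23), the second start of Ldha (0.25) and Odc1 (0.072) lay between. The median ratio was 0.28 over the 10 start sites, against -0.0093 over all promoters, and it has no test. These targets belong to the list drawn up with results of these data known, so their counts and median support nothing further. Sox2 positions were listed within 10 kb of Npm1 in all 3 lists, of Odc1 in both knockdown lists (9277 and 9245 bp), and of Fbl and Srm in Chaf1a.2122 alone (1385 and 487 bp). The other 5 genes had none within 10 kb. At Fbl the nearest Renilla position was 10039 bp away, just past the limit, so that its class depends on the limit.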

How the data were processed

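Sox2 ChIP-seq (6 libraries, 1 immunoprecipitate and 1 input per hairpin) and Sono-seq (6 libraries, 3 per condition) of day 3 were used. The submitters' processing notes name mm9 as the genome build and list BWA 0.7.8 and Bowtie, with no step for either. No source used here names the caller of the Sox2 positions. The authors' lists hold, per the file headers, a score and an E-value, a false discovery rate (q-value), and an enrichment ratio over input with a lower bound. All of them were compared only within a list. The deposited Sono-seq values were treated as a score, as no source used here states their unit or how the authors merged 3 libraries. No pseudocount was needed.

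Computed here, with Python 3.11.15, pandas 2.3.3 and scipy 1.17.1, were log2 ratios of CAF-1 over Renilla, percentiles over distinct regions, counts of positions within 500 kb of a start site, and sites from positions joined within 200 bp. Joining and counting were tested on simulated data. Sox2 was called at a region, which the table gives as a point, for distances up to 500 bp, and near a gene for up to 10 kb. Intervals are exact, at 95%. The planned test over libraries was not made, as the table has no value per library. Alternatives tried were other scalings, pseudocounts, windows, joining distances and list thresholds. Named genes were the members, table genes within 1 Mb of them, the Myc network list (1 gene of it is not reported here) and the 3 promoters most like each member. The members, lists and tests were chosen with earlier results of these data known. Strand and promoter sequence came from RefSeq GRCm38.p6, used with no conversion of coordinates.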

Additional observations from a re-analysis of the deposited data

How the results depend on the processing

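Of 74 alternative values, 12, each a count, moved by more than 1.5 times or to 0. The 22 for Sono-seq ratios were set against the SD over the gene's own enhancers or over all promoters. That SD is wide beside them and says little on stability. Some of the 22 could not change a value, as no Mycn enhancer is shared between genes. Without enhancers of several genes the Pvt1 median changed sign, from -0.0025 to 0.041. Scaling shifted every ratio by -0.019 or -0.022. All 16 site class counts stayed within 1.5 times. For Mycn, a window of 250 kb gave 6 (Renilla), 7 (Chaf1a.166) and 4 (Chaf1a.2122) positions, and an enrichment lower bound of at least 2 gave 6 for Renilla. For Pvt1, 250 kb gave 5 (Renilla) and 9 (Chaf1a.2122), and 1 Mb gave 25, 22 (Chaf1a.166) and 34 (Chaf1a.2122). The lower bound of 2 gave 7 for Chaf1a.2122 there. That limit kept 11071 of 19319 positions of the whole Chaf1a.2122 list and 11545 of 17681 of the Renilla list. Pvt1 enhancers with a Sox2 position numbered 0 within 250 bp and 2 within 2000 bp, with no share over all enhancers at these distances. Cutting each list to its best 90% by score was added after seeing the data. No paired analysis was possible because neither kind of file keeps replicates apart, and single libraries could not be left out either. Unknown read depth limits any statement on missing positions.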
